A study of Homo sapiens with 10 samples.

Results

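The dystrophin-associated complex genes described here are 10 of the 58051 gene rows in the deposited count tables: SGCD, SGCB, SGCE, SSPN, DAG1, UTRN, DTNA, DTNB, SNTB1 and SNTB2. The set was chosen by the measured levels of SGCD and DTNA, which were higher in RBM4 knockout than in wild type cells, and the other 8 genes were added as members of the same complex. The values of SGCD and DTNA against wild type are therefore given as a description, with no test. Of the 10 genes, 9 passed the filter on low counts and SSPN did not. DMD, the gene of dystrophin, is outside the set and is described further on with other complex genes. All libraries came from HAP1, an adherent near-haploid human line derived from the leukaemia line KBM-7. The paired-end libraries comprised 3 of RBM4 knockout clone 1, 2 of RBM4 knockout clone 2 and 3 of unedited wild type cells. A further single-end pair held 1 library of an RBM4 knockout clone and 1 of wild type. Each knockout group is 1 clone of edited cells, the label of the single-end knockout does not say which clone it is, and no treatment was applied to any group. RBM4 encodes an RNA-binding protein that acts in splicing and translation.

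The dystrophin-associated complex joins the actin cytoskeleton to the extracellular matrix across the plasma membrane. On the inside, dystrophin or its relative utrophin binds actin and the tail of dystroglycan, while the outer part of dystroglycan binds laminin and related ligands through a glycan that a dedicated set of enzymes builds. Sarcoglycans and sarcospan stabilise the assembly in the membrane, and dystrobrevins and syntrophins form a signalling scaffold beneath it. The complex is best known from muscle, where loss of dystrophin or of a sarcoglycan causes muscular dystrophy, and versions built around utrophin occur in many other cell types.

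The targeted gene, RBM4, had 22.3, 22.9 and 24.5 CPM (read counts scaled to a common library size) in clone 1 and 25.3 and 25.8 CPM in clone 2, against 79.8, 79.8 and 78.7 CPM in wild type. The single-end libraries held 25.3 CPM in the knockout and 84.7 CPM in wild type. The position of the edit in RBM4 was not known here, so the counts do not show how much of the remaining transcript was intact. Paired-end libraries held 33192095 to 55617525 counts each, and the single-end libraries 41265510 in the knockout and 44140706 in wild type. The marker values that follow are from the paired-end libraries alone. Of 8 blood markers none passed the filter, and their summed level was 0.151 to 0.446 CPM in knockout and 0.194 to 0.285 CPM in wild type libraries. Of 11 skeletal muscle markers, MYOD1, MYOG, MYF5, MYF6 and PAX7 were at 0 in every paired-end library, and the summed level was 1.78 to 2.38 CPM in knockout and 2.59 to 2.83 CPM in wild type libraries. Of 7 smooth muscle markers MYOCD was at 0, and the sum was 37.1 to 58.9 CPM in knockout and 42.4 to 48.1 CPM in wild type libraries. That sum was mostly ACTG2, which averaged 46.8 CPM in clone 1 and 31.7 CPM in clone 2, against 40.8 CPM in wild type. TAGLN averaged 4.11 CPM in clone 1 and 4.37 CPM in clone 2, against 2.25 CPM in wild type. For LMOD1 the means were 1.03, 0.966 and 0.626 CPM in the same order, and for ACTA2 2.83, 1.97 and 2.36 CPM. Of 7 fibroblast markers COL1A2, DCN and LUM were at 0, and the sum was 19.3 to 26.9 CPM in knockout libraries, above the 13.5 to 14.4 CPM of wild type. The 7 epithelial markers also summed higher, to 56.9 to 76.2 CPM in knockout against 41.5 to 47.6 CPM in wild type libraries. These sums were mostly COL1A1 and KRT18, while in clone 2 THY1 (0.163 against 0.341 CPM in wild type) and EPCAM (0.963 against 1.57 CPM) averaged lower. In clone 1 THY1 (1.14 CPM) and EPCAM (2.30 CPM) averaged higher than in wild type. KRT8 averaged 5.31 CPM in clone 1 and 14.4 CPM in clone 2, against 4.10 CPM in wild type. The part of any of these marker lists in the results that follow was not tested.

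SGCD, on chromosome 5 at 155870344 to 156767788 on the plus strand of GRCh38 (GENCODE 29), and DTNA, on chromosome 18 at 34493290 to 34891844 on the plus strand, are the genes around which the set was built. Their promoter windows are shown first, beside that of DAG1, a member with a high level in every library. Each window runs from 250 bases before to 50 bases after a transcript start and comes from RefSeq on GRCh38.p14. Capitals mark matches, on either strand, to 5 motifs. The E-box was searched as CANNTG, the GC box as GGGCGG and the AP-1 site as TGANTCA. The CCAAT box was searched by the letters of its name, and the TATA box was searched in its longer form, TATAAA. The SGCD window is chr5:156326914-156327213 on the plus strand, inside the GENCODE gene. The DTNA window, the first of 7 that RefSeq lists for this gene, is chr18:34493062-34493361 on the plus strand. The DAG1 window, the first of 2, is chr3:49469882-49470181 on the plus strand.
SGCD: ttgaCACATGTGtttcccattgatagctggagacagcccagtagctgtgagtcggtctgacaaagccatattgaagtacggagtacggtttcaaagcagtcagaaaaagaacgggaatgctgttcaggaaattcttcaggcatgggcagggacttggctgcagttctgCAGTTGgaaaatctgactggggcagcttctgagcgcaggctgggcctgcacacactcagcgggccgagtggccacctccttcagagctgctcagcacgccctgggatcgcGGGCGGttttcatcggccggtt
DTNA: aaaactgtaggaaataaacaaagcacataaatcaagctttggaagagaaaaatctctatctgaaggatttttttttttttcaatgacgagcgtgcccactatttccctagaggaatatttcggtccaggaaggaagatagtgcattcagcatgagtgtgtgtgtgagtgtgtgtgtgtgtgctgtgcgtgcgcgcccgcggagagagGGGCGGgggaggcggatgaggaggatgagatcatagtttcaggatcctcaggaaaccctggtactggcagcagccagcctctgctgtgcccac
DAG1: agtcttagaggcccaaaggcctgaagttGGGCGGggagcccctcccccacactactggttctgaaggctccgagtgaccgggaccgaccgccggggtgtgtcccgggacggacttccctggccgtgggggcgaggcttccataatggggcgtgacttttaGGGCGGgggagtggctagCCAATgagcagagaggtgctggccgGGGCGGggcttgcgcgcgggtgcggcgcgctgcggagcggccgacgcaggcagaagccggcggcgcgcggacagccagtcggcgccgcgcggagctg

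The SGCD window held 3 E-box matches, of which the first pair overlaps, and 1 GC box match. The DTNA window held 1 GC box match and none of the other motifs. The DAG1 window held 3 GC box matches and 1 CCAAT box match. Over all 35116 windows of the table, 68.7% held an E-box, 45.0% a GC box, 34.6% a CCAAT box, 11.5% a TATA box and 7.71% an AP-1 site. G and C made up 55.3% of the SGCD window and 49.0% of the DTNA window, both below the median of 58.7% over all windows, against 71.7% in DAG1. All 7 DTNA windows lay between 32.3% and 49.0%. Other first windows were richer in G and C, at 83.3% for DTNB, 74.7% for SGCB, 72.3% for UTRN and 69.0% for SNTB2, while that of SSPN stood at 45.3%. Windows were described for 8 of the 10 members, 18 windows together. No window was available for SGCE, and windows on chromosome 8, where SNTB1 lies, were left out.

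Among the sarcoglycans, SGCD was several-fold higher in both knockout clones than in wild type, and higher in clone 2 than in clone 1, while SGCB and SGCE were not called. SGCD encodes delta-sarcoglycan, a membrane protein of the sarcoglycan subcomplex whose loss causes limb-girdle muscular dystrophy. SGCD (ENSG00000170624) had 2.99, 4.04 and 3.87 CPM in clone 1, with 14.4 and 17.5 CPM in clone 2, against 1.09, 1.28 and 1.38 CPM in wild type. Every library of clone 2 lay above every library of clone 1, and these in turn lay above every wild type library. The values rest on 99, 224 and 157 counts in clone 1 and 580 and 823 counts in clone 2, against 46, 45 and 57 counts in wild type. Mean levels were 3.64 ± 0.565 CPM in clone 1 (SD, n = 3), 15.9 ± 2.21 CPM in clone 2 (SD, n = 2) and 1.25 ± 0.147 CPM in wild type (SD, n = 3). The fitted log2 fold change over wild type was 1.55 in clone 1 (2.93-fold) and 3.67 in clone 2 (12.7-fold), with 2.61 for the mean of the clones. In bulk RNA, more cells with a transcript and more transcript per cell cannot be told apart.

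SGCD and DTNA were chosen by their rise over wild type, and the difference between the clones was tested. The values of both clones are part of that rise, so this test is not wholly independent of the choice. SGCD was 4.34-fold higher in clone 2 than in clone 1, a log2 fold change of 2.12 (95% interval 1.81 to 2.43) with an adjusted p of 7.01e-07 in edgeR's quasi-likelihood test over all 20747 rows. Among all rows, 2.09% were called in this comparison at an adjusted p below 0.05, with 1.1% higher and 0.993% lower in clone 2. Of the 9 members tested, SGCD, which helped choose the set, was the 1 that was called. The single-end pair, normalised apart from the other libraries, held 532 SGCD counts in the knockout and 27 in wild type, or 12.7 CPM in the knockout and 0.622 CPM in wild type. That ratio was 20.4, from a pair with no replicates.

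**Figure D1:**
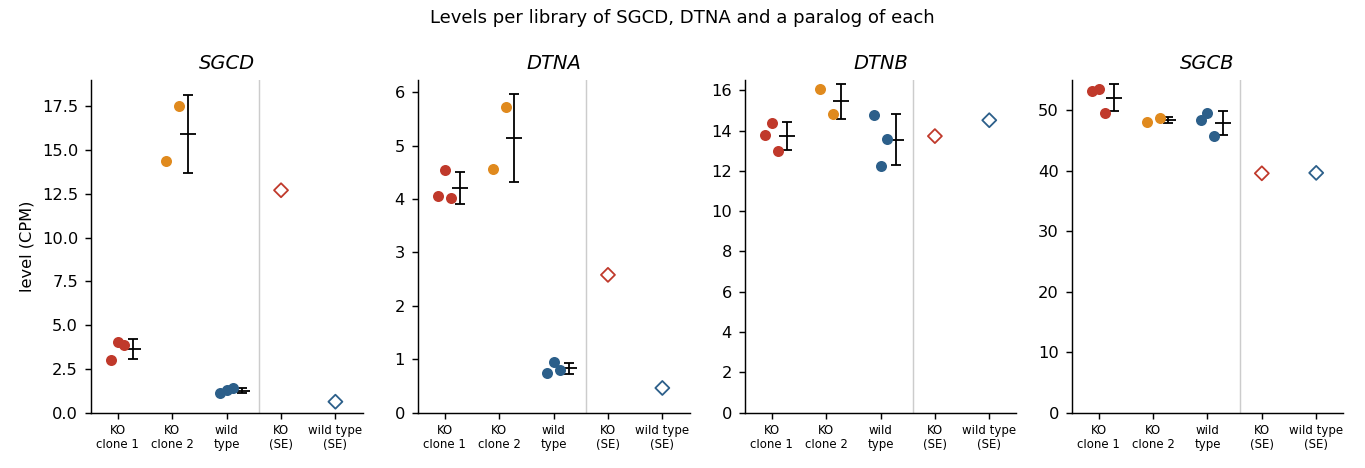
Levels of SGCD, DTNA, DTNB and SGCB in CPM on linear axes from 0, with 1 dot per paired-end library of RBM4 knockout clone 1, clone 2 and wild type, bars for the mean ± SD, and open diamonds for the single-end (SE) knockout and wild type libraries. SGCD lay at 2.99 to 4.04 CPM in clone 1 and 14.4 to 17.5 CPM in clone 2, above 1.09 to 1.38 CPM in wild type, and DTNA lay above wild type in every knockout library, while the dots of DTNB and SGCB overlap between knockout and wild type.

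SGCB encodes beta-sarcoglycan, which assembles with delta-sarcoglycan in the core of the subcomplex. It lies on chromosome 4 at 52020706 to 52038482 on the minus strand. SGCB had 53.1, 53.5 and 49.5 CPM in clone 1, with 48.1 and 48.7 CPM in clone 2, against 48.4, 49.5 and 45.7 CPM in wild type. The knockout and wild type libraries overlapped, and the log2 fold change of the mean of the clones was 0.07 (95% interval -0.04 to 0.18, adjusted p = 0.390 in edgeR). With a correction for the GC content of transcripts it was 0.19 with an adjusted p of 0.0118, so its call depends on that choice. In the single-end pair SGCB stood at 39.5 CPM in the knockout and 39.6 CPM in wild type.

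SGCE encodes epsilon-sarcoglycan, a relative of alpha-sarcoglycan found outside striated muscle, and is a maternally imprinted gene whose loss causes myoclonus-dystonia. It lies on chromosome 7 at 94524204 to 94656572 on the minus strand. SGCE had 60.4, 63.1 and 57.3 CPM in clone 1, with 57.0 and 66.0 CPM in clone 2, against 58.9, 56.7 and 56.4 CPM in wild type. The lowest knockout library lay within the wild type range, and the log2 fold change was 0.09 (95% interval -0.04 to 0.21, adjusted p = 0.328 in edgeR). With the GC correction it was 0.28, with an adjusted p of 0.000605. The single-end values were 51.8 CPM in the knockout and 53.7 CPM in wild type, a ratio of 0.965 (95% interval 0.909 to 1.02).

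Exons of SGCE overlap exons of PEG10, a retrotransposon-derived imprinted gene on the opposite strand. PEG10 had 3169.9, 3981 and 3581 CPM in clone 1, with 3929.7 and 4865 CPM in clone 2, against 2353, 2661 and 2644 CPM in wild type. It rose by 0.64 on the log2 scale in the mean of the clones (adjusted p = 0.000535 in edgeR). The libraries were made with a stranded kit, per the labels' protocols, but whether reads were counted by strand is not stated in the labels, and what share of SGCE counts came from PEG10 was not tested.

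Per kilobase of the longest coding transcript, SGCD made up 1.27% ± 0.204 of the sum of SGCD, SGCB and SGCE in clone 1 (SD, n = 3), 5.38% ± 0.365 in clone 2 (SD, n = 2) and 0.469% ± 0.0654 in wild type (SD, n = 3). The single-end shares were 5.18% in the knockout and 0.261% in wild type. The lengths used were 9755 bases for SGCD, 4431 for SGCB and 3474 for SGCE, and the share is understated if SGCD was read mainly as a shorter isoform. On this scale SGCD remained a small part of the measured sarcoglycan transcripts in every library. SGCA, which encodes alpha-sarcoglycan, had no count in any library. SGCZ, which encodes zeta-sarcoglycan, had 0 counts in the 5 knockout libraries, against 3, 2 and 4 counts in wild type. In the single-end pair SGCZ had 0 counts in the knockout and 15 in wild type, and the exact 95% interval of the ratio reached up to 0.289.

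SSPN encodes sarcospan, a protein with several membrane spans that binds the sarcoglycans. It lies on chromosome 12 at 26121991 to 26299290 on the plus strand. SSPN had 3 counts in clone 1 and 2 in clone 2, against 4 in wild type, and 0 in each single-end library, so no difference was detectable at this depth.

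DAG1 encodes dystroglycan, the laminin receptor at the centre of the complex, and had the highest level per kilobase of the 10 genes. It lies on chromosome 3 at 49468703 to 49535618 on the plus strand. DAG1 had 162, 167 and 156 CPM in clone 1, with 159 and 164 CPM in clone 2, against 150.0, 151 and 152 CPM in wild type. Every knockout library lay above every wild type library, but the difference was small, at a log2 fold change of 0.10 (95% interval 0.00 to 0.19). It was not called over all rows (adjusted p = 0.146 in edgeR, unadjusted p = 0.0436), and it turned to -0.04 with the GC correction. The single-end values were 172 CPM in the knockout and 167 CPM in wild type.

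UTRN encodes utrophin, the relative of dystrophin that anchors the complex to actin in most non-muscle cells. It lies on chromosome 6 at 144285701 to 144853034 on the plus strand. UTRN had 155, 185 and 174 CPM in clone 1, with 168 and 175 CPM in clone 2, against 172, 163 and 172 CPM in wild type. Libraries of the groups were interleaved, and the log2 fold change was 0.02 (95% interval -0.10 to 0.15, adjusted p = 0.816 in edgeR), a direction that reversed when the second replicate of any of the 3 groups was left out. In the single-end pair UTRN stood at 154 CPM in the knockout and 120 CPM in wild type, a ratio of 1.28 (95% interval 1.24 to 1.33 for counting error), beside a fitted 1.02-fold in the replicated libraries.

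Of the dystrobrevins, DTNA was 5.12-fold higher in clone 1 and 6.25-fold higher in clone 2 than in wild type, and DTNB was not called. DTNA encodes alpha-dystrobrevin, which binds dystrophin or utrophin and carries syntrophins, and DTNB encodes beta-dystrobrevin, its counterpart in non-muscle tissues. DTNA (ENSG00000134769) had 4.05, 4.55 and 4.02 CPM in clone 1, with 4.56 and 5.72 CPM in clone 2, against 0.736, 0.942 and 0.80 CPM in wild type. Every knockout library lay above every wild type library, and the ranges of the clones met at 4.55 and 4.56 CPM. The log2 fold change over wild type was 2.36 in clone 1 (5.12-fold) and 2.64 in clone 2 (6.25-fold), with 2.5 for the mean of the clones. Between the clones DTNA was not called: the log2 fold change of clone 2 over clone 1 was 0.29 (95% interval -0.03 to 0.61, adjusted p = 0.608 in edgeR). In the single-end pair DTNA had 108 counts in the knockout and 20 in wild type, or 2.58 CPM in the knockout and 0.461 CPM in wild type, a ratio of 5.60.

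DTNB lies on chromosome 2 at 25377198 to 25673647 on the minus strand. DTNB had 13.8, 14.4 and 13.01 CPM in clone 1, with 16.1 and 14.8 CPM in clone 2, against 14.8, 12.2 and 13.6 CPM in wild type. The groups overlapped, and the log2 fold change was 0.10 (95% interval -0.07 to 0.27, adjusted p = 0.410 in edgeR), with -0.05 under the GC correction. The single-end values were 13.7 CPM in the knockout and 14.5 CPM in wild type. Per kilobase, DTNA made up 10.4% ± 0.359 of the dystrobrevin transcripts in clone 1 (SD, n = 3), 11.2% ± 2.15 in clone 2 (SD, n = 2) and 2.29% ± 0.50 in wild type (SD, n = 3). The single-end shares were 6.65% in the knockout and 1.19% in wild type, so on this scale DTNB supplied most dystrobrevin transcripts in every library.

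The beta-syntrophins, adaptor proteins that bind dystrobrevin and dystrophin and recruit signalling enzymes, are encoded by SNTB1 on chromosome 8 at 120535745 to 120813273 on the minus strand and by SNTB2 on chromosome 16 at 69187129 to 69309052 on the plus strand. SNTB1 had 13.4, 14.4 and 13.9 CPM in clone 1, with 12.01 and 12.8 CPM in clone 2, against 14.8, 15.4 and 14.7 CPM in wild type. Every knockout library lay below every wild type library, by a narrow margin in clone 1. The log2 fold change was -0.19 for the mean of the clones (95% interval -0.33 to -0.04, adjusted p = 0.0729) and -0.27 in clone 2 (95% interval -0.45 to -0.09, adjusted p = 0.0598 in edgeR), so SNTB1 was not called in either. Leaving out clone 1 replicate 1 or replicate 3 brought the clone 2 comparison to an adjusted p of 0.0462 and 0.0480. The single-end values were 10.4 CPM in the knockout and 13.5 CPM in wild type, a ratio of 0.774 (95% interval 0.682 to 0.877 for counting error). Exons of SNTB1 overlap those of MTBP on the opposite strand.

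SNTB2 had 75.0, 77.8 and 79.7 CPM in clone 1, with 81.0 and 81.7 CPM in clone 2, against 89.2, 84.6 and 78.1 CPM in wild type. The lowest wild type library lay within the knockout range, and the log2 fold change was -0.08 (95% interval -0.19 to 0.03, adjusted p = 0.318 in edgeR), with 0.01 under the GC correction. The single-end values were 76.1 CPM in the knockout and 71.7 CPM in wild type. SNTB2 shares exons with an unnamed coding gene on the same strand, ENSG00000260914, which was at 29.3 CPM, and how reads were divided between them was not tested.

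In the comparisons with wild type, 0 of the 7 members tested besides SGCD and DTNA were called by edgeR, in clone 1, in clone 2 or in the mean of the clones, against 16.0% of all rows in clone 1 (9.37% higher and 6.64% lower), 10.8% in clone 2 (6.18% higher and 4.59% lower) and 18.0% in the mean of the clones (9.87% higher and 8.09% lower). At an unadjusted p below 0.05 there was 1 such member in clone 1, 1 in clone 2 and 2 in the mean of the clones, and DESeq2 also called 0 in each. The median log2 fold change of the 7 was 0.07 in the mean of the clones, with a range of -0.19 to 0.10, beside a median of 0.00 over all rows. With the GC correction 2 of the 7 were called in the mean of the clones, SGCB and SGCE. Of 3 further complex genes tested outside the set, 2 were called lower in the mean of the clones, as described below.

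**Figure D2:**
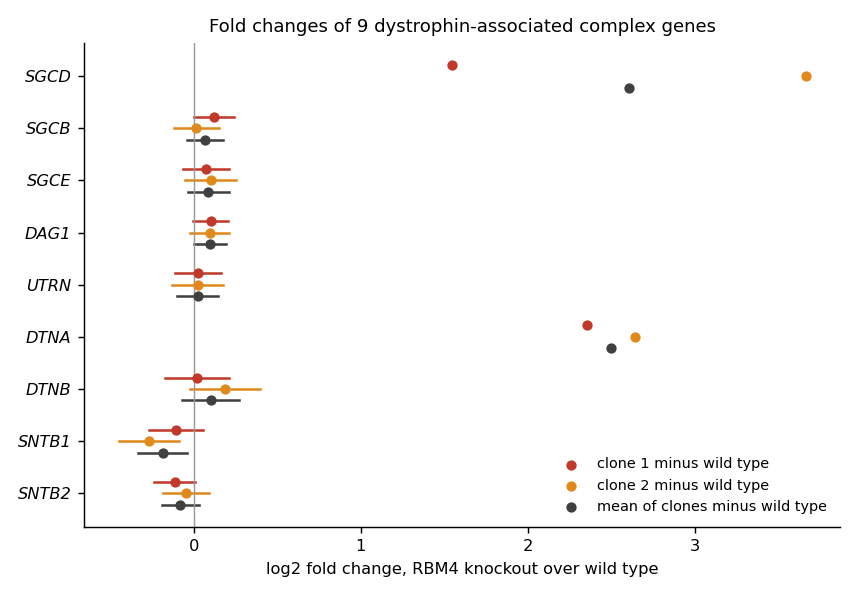
Log2 fold change of 9 dystrophin-associated complex genes for RBM4 knockout clone 1, clone 2 and the mean of the clones over wild type, with 95% intervals for the 7 genes that did not choose the set and points alone for SGCD and DTNA. SGCD (1.55 in clone 1, 3.67 in clone 2) and DTNA (2.36 in clone 1, 2.64 in clone 2) stand to the right, and the mean-of-clones points of the other 7 lie between -0.19 and 0.10.

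Levels were ordered per kilobase of the longest coding transcript, a scale that understates genes read mainly as shorter isoforms. In wild type the order was DAG1 at 25.9 CPM per kb, SGCE at 16.5, UTRN at 13.7, SGCB at 10.8, SNTB2 at 8.58, DTNB at 5.48, SNTB1 at 2.90, SGCD at 0.128, DTNA at 0.127 and SSPN at 0.00802. Each of these neighbours was apart in all 3 wild type libraries except SGCD and DTNA, whose ranges overlapped. The first 7 genes stood in the same order in both clones, again with no overlap between neighbours. In clone 1 DTNA followed at 0.645 CPM per kb and SGCD at 0.373, while in clone 2 SGCD came before DTNA, at 1.63 and 0.787 CPM per kb. In these units SGCD in clone 2 was still below SNTB1, which was at 2.40 CPM per kb there.

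**Figure D3:**
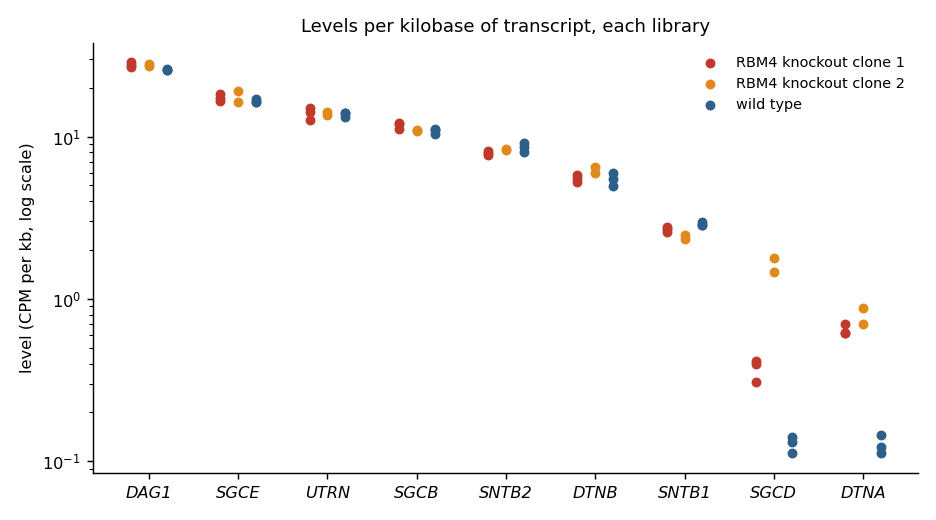
Level of 9 dystrophin-associated complex genes in CPM per kb on a log axis, with 1 dot per paired-end library of RBM4 knockout clone 1, clone 2 and wild type, and genes ordered by their wild type mean. The 7 genes from DAG1 to SNTB1 kept nearly the same height in all groups, while SGCD and DTNA stood near 0.13 CPM per kb in wild type and higher in each knockout library.

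The nearest genes that passed the filter on each side of SGCD and DTNA were not called. Beside SGCD, KIF4B at a distance of 852 kb had a log2 fold change of -0.07 (adjusted p = 0.905) and HAVCR2 at 318 kb had -0.32 (adjusted p = 0.631 in edgeR). Beside DTNA, ASXL3 at 742 kb had 0.08 (adjusted p = 0.892) and MAPRE2 at 85.1 kb had -0.17 (adjusted p = 0.132 in edgeR). KIF4B, HAVCR2 and ASXL3 were all below 1 CPM, and the directions of KIF4B and ASXL3 reversed when single libraries were left out.

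The genes whose levels followed SGCD most closely over the 8 paired-end libraries were WNT5A, ESRG, GLIS3, RPS6KA6 and MYLIP, with Pearson correlations of log2 CPM of 0.999, 0.993, 0.991, 0.991 and 0.986. WNT5A, a secreted Wnt ligand, was 0.48 higher on the log2 scale in clone 1 and 1.18 higher in clone 2 than in wild type, a smaller span than that of SGCD. For DTNA the closest were KLHL29, PREX1, CXCL14, RND2 and THBS1, with correlations of 0.997, 0.997, 0.995, 0.994 and 0.993. THBS1, which encodes the matrix protein thrombospondin-1, was 3.6 higher on the log2 scale in clone 1 and 4.13 higher in clone 2. SGCD and DTNA themselves correlated at 0.858 (Spearman 0.952). Of 13434 candidate genes, 50 exceeded 0.95 with SGCD and 161 with DTNA, and the 8 libraries share 3 groups, so these values mainly describe the steps between the groups.

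A set of 4 lists of other genes around the complex were examined alongside the members. Of 6 further complex genes 3 passed the filter, and in the mean of the clones 0 rose and 2 fell, with a median log2 fold change of -0.47, where 9.87% of all rows were called higher and 8.09% lower. In both clones 1 of the 3 fell. DMD, which encodes dystrophin, had 11.1, 13.1 and 12.8 CPM in clone 1, with 9.46 and 9.71 CPM in clone 2, against 16.3, 16.3 and 18.0 CPM in wild type. All knockout libraries lay below all wild type libraries, and DMD fell in both clones, by 0.44 on the log2 scale in clone 1 (adjusted p = 0.00365) and by 0.81 in clone 2 (adjusted p = 0.00011 in edgeR). In rows over all genes and repeats, 3.09% were called lower in both clones. The single-end values of DMD were 8.95 CPM in the knockout and 14.4 CPM in wild type, a ratio of 0.623 (95% interval 0.546 to 0.709 for counting error). Gene-level counts do not separate full-length dystrophin from its short isoforms. Per kilobase DMD made up 5.99% ± 0.0907 of the sum of DMD and UTRN in clone 1 (SD, n = 3), 4.71% ± 0.0463 in clone 2 (SD, n = 2) and 8.10% ± 0.371 in wild type (SD, n = 3). SNTG2, which encodes gamma-2-syntrophin, fell by 0.47 in the mean of the clones (adjusted p = 0.00747 in edgeR). DRP2, a dystrophin relative, had a log2 fold change of -0.25 and was not called (adjusted p = 0.128 in edgeR, 0.0475 with the GC correction).

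Of 19 genes for enzymes that build the glycan of dystroglycan or its sugar donors 18 passed the filter, and 0 rose and 2 fell in the mean of the clones, with a median log2 fold change of 0.08. The 2 of 18 that fell are a share near the 8.09% of all rows called lower. SRD5A3, which acts in making dolichol, fell in both clones, by 0.41 in clone 1 and 0.60 in clone 2, and DPM1, a subunit of the enzyme that makes dolichol-phosphate-mannose, fell by 0.20 in the mean of the clones (adjusted p = 0.0201 in edgeR), a call that ended under 5 of 17 alternatives. DPM3, another subunit of that enzyme, had a log2 fold change of 0.26 in the mean of the clones (adjusted p = 0.0798) and was called higher in clone 1 (0.38, adjusted p = 0.0256 in edgeR). In the mean it was called under 4 of 17 alternatives, with adjusted p from 0.0051 to 0.0476, the highest of these without clone 2 replicate 2.

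Of 15 genes for ligands of dystroglycan 10 passed the filter, and 5 rose and 3 fell in the mean of the clones, with a median of 0.09, beside 9.87% of all rows called higher and 8.09% lower. In both clones 3 rose and 2 fell, beside 4.42% and 3.09% of all rows. NRXN2 (0.60), HSPG2 (0.58), the gene of perlecan, and LAMB2 (0.48) rose in both clones, AGRN (0.24), the gene of agrin, and LAMA5 (0.27) rose in the mean of the clones, and the calls of AGRN and LAMA5 ended under 7 and 8 of 17 alternatives. With the GC correction AGRN was at 0.03 (adjusted p = 0.779) and LAMA5 at 0.06 (adjusted p = 0.5435 in edgeR). The lowest values in the mean of the clones under the alternatives were 0.39 for NRXN2, 0.37 for HSPG2 and 0.29 for LAMB2. The call of NRXN2 in clone 2 ended without wild type replicate 1, wild type replicate 2 or clone 2 replicate 1 (adjusted p = 0.0954, 0.0804 and 0.259 in edgeR). LAMA4 and LAMA2, laminin alpha chains, fell in both clones. LAMA4 had 11.2, 11.4 and 10.3 CPM in clone 1, with 6.76 and 6.67 CPM in clone 2, against 16.2, 15.5 and 14.6 CPM in wild type, with log2 fold changes of -0.49 in clone 1 and -1.20 in clone 2. LAMA2 had log2 fold changes of -0.56 in clone 1 and -0.98 in clone 2, and its clone 1 call ended when wild type replicate 1 was left out (adjusted p = 0.0505 in edgeR). LAMA3 fell by 0.35 in the mean of the clones, a call that ended under 7 of 17 alternatives.

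Of 15 cytoplasmic and membrane partners 12 passed the filter, and 3 rose and 0 fell in the mean of the clones, with a median of 0.03, beside 9.87% of all rows called higher and 8.09% lower. CAV1, which encodes caveolin-1, a coat protein of caveolae, had 2.30, 2.96 and 2.67 CPM in clone 1, with 3.32 and 4.59 CPM in clone 2, against 0.807, 0.970 and 0.824 CPM in wild type. All knockout libraries lay above all wild type libraries, and CAV1 rose by 1.91 in the mean of the clones (adjusted p = 7.96e-06 in edgeR). SYNM, which encodes the intermediate filament protein synemin, rose by 0.51 and PLEC, which encodes the cytolinker plectin, by 0.38, each called in both clones, though the call of PLEC in clone 1 ended with the GC correction (0.12, adjusted p = 0.139 in edgeR) and that in clone 2 without its replicate 1 (adjusted p = 0.0995). Without wild type replicate 1 SYNM had an adjusted p of 0.0503 in clone 1. In rows over all genes and repeats, 4.42% were called higher in both clones. NOS1, CAV3 and AQP4, muscle or brain partners of the complex, had no count in any paired-end library.

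**Figure D4:**
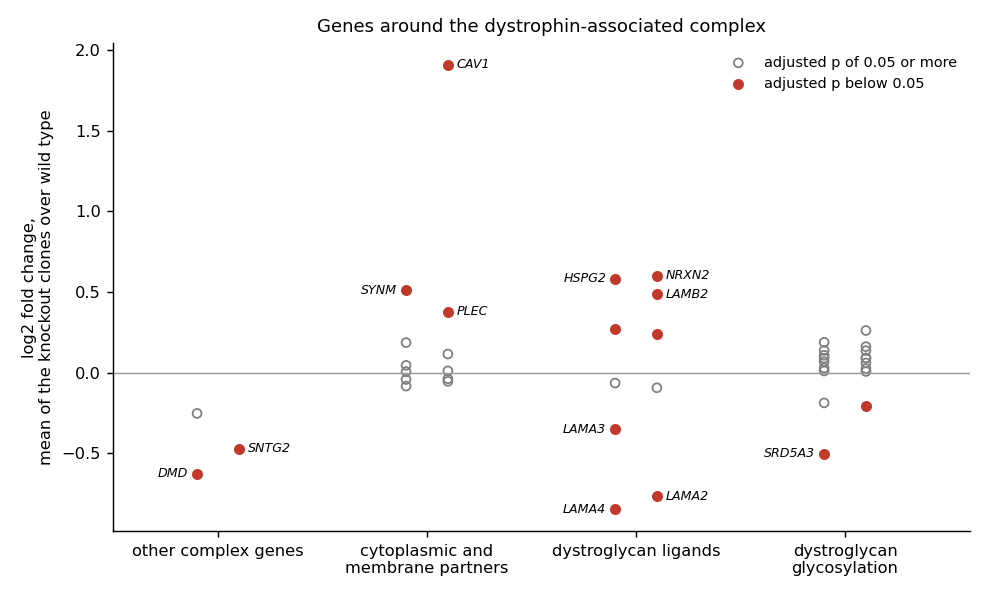
Log2 fold change of the mean of the RBM4 knockout clones over wild type for the genes that passed the filter in 4 lists (other complex genes, cytoplasmic and membrane partners, dystroglycan ligands and dystroglycan glycosylation), filled where the adjusted p was below 0.05. DMD (-0.63), LAMA4 (-0.85) and LAMA2 (-0.77) lie below 0, and CAV1 (1.91) lies highest.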

How the data were processed

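The series holds 8 paired-end and 2 single-end RNA libraries of RBM4 knockout and wild type HAP1 cells, made from 65 ng of total RNA with a stranded mRNA kit, per the labels' protocols. The deposited tables, 1 per layout, hold whole-number read counts per gene (58051 rows) and per repeat (1187 rows), with no normalisation. Reads were aligned with STAR 2.5.2a to GRCh38, per the submitters' processing notes. No source read for this work states the version, strand setting or annotation used in counting. Some members of the gene lists are not reported here. Identifiers were matched to GENCODE 29 (57447 had a symbol).

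Counts were filtered with edgeR's filterByExpr (20747 rows kept), scaled with TMM factors and tested by the quasi-likelihood method of edgeR (robust F test, 8 paired-end libraries, 1 mean for each group). The 4 contrasts set each clone and their mean against wild type, and clone 2 against clone 1. Adjustment of p-values was by the Benjamini-Hochberg method over all rows, and a row was called below 0.05. Where all knockout libraries lay above or below all wild type libraries, this describes single genes. The share of all rows that separate in this way is not given here. The single-end pair was scaled apart and used as values, with exact conditional intervals that cover counting error only. Software was edgeR 4.0.16 and DESeq2 1.42.0, with limma 3.58.1, under R 4.3.3, and the code was tested on simulated data. The 17 alternatives included DESeq2, other filters, a GC correction (spline with 6 degrees of freedom), terms for replicate and sample number, and each replicate left out.

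The members and gene lists were chosen with earlier results of these data known. Genes named besides the members were, per list, up to 3 per direction called the same way in both clones, or else that with the smallest p, the most abundant ones, the neighbours of SGCD and DTNA, PEG10, and the 5 genes most correlated with SGCD and with DTNA. Correlations were taken over genes whose log2 CPM (prior count 2) averaged 1 or more. Other names, among them SGCZ, DRP2, LAMA3 and LAMA5, complete small counts and were chosen after their values were seen. The labels do not say whether replicates were separate cultures. P-values therefore measure only the spread among the libraries, which could be technical. Within groups no pair of libraries agreed within sampling noise. Samples of the same replicate number did not deviate together in every pair (correlations from -0.233 to 0.253), so numbers were not taken as pairs in the main fit. The same-number pairs between the clones were positive, at 0.253 and 0.197, while those with wild type ran from -0.233 to 0.054.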

Additional observations from a re-analysis of the deposited data

Results flagged for a closer look

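SGCD differed between the knockout clones, with a log2 fold change of clone 2 over clone 1 of 2.12 (SE 0.142, adjusted p = 7.01e-07 in edgeR over all rows) and values between 1.97 and 2.26 under the alternatives. SGCD was chosen by its rise over wild type, which includes the values of both clones. Its test is therefore not wholly independent of that choice. LAMA4 was lower in clone 2 than in clone 1, at -0.70 (SE 0.0973, adjusted p = 0.000965 in edgeR). Each clone is a single line of edited cells, so an effect of the edit and other differences between lines cannot be told apart.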

How the results depend on the processing

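Over wild type, the values by which the genes were chosen ran from 2.40 to 2.73 for SGCD and from 2.38 to 2.59 for DTNA in the mean of the clones over the 17 alternatives, which is a description only. The difference of SGCD between the clones, whose test is not wholly independent of the choice of SGCD, stayed called under all 17 alternatives. With 1 replicate left out, rows called ran from 1605 to 3229 in clone 1 (3321 with all), from 1033 to 2747 in clone 2 (2236), from 1847 to 4251 in the mean of the clones (3725) and from 224 to 418 in clone 2 against clone 1 (434, or 688 with no filter on low counts). Members called besides SGCD and DTNA, 0 in each contrast, became 2, 1 and 2 in clone 1, clone 2 and the mean with the GC correction, 4, 1 and 4 with a GC correction by the mean of coding transcripts, added after seeing the data, and 2, 1 and 2 with the replicate block and GC correction. In clone 2 the count was 1 with a sample-number term and 0 to 1 with 1 replicate left out. By the mean of coding transcripts the 4 were SGCB (0.22), SGCE (0.19), SNTB1 (-0.31) and SNTB2 (-0.15).

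Directions in the mean of the clones reversed with the GC correction for DTNB (-0.0458), DAG1 (-0.0404, and -0.0796 by coding transcripts), SNTB2 (0.0063) and DGKZ (-0.15, and -0.16 by coding transcripts). UTRN turned to -0.0621 and GRB2 to 0.0197 with the sample-number term, and UTRN to -0.012, -0.0045 and -0.00089 without wild type replicate 2, clone 1 replicate 2 and clone 2 replicate 2, within a range of -0.0124 to 0.0463 when 1 replicate was left out. KIF4B turned to 0.282 and ASXL3 to -0.364 with the sample-number term, and with 1 replicate left out they ran from -0.274 to 0.248 and from -0.169 to 0.207. The cause was not tested. The replicate block, where numbers only name samples, gave 3716, 2526, 4248 and 431 rows called in the 4 contrasts and 0 members against wild type, turned ASXL3 to -0.00253, and with the GC correction reversed DTNB (-0.0621), DAG1 (-0.0544), SNTB2 (0.00353) and DGKZ (-0.15). In the mean of the clones the calls of DPM1, AGRN, LAMA3 and LAMA5 ended without wild type replicate 1 (adjusted p = 0.154, 0.150, 0.155 and 0.111 in edgeR) and without clone 2 replicate 1 (0.0641, 0.0763, 0.141 and 0.0708), and each also under other alternatives. The lowest numbers of rows called came without wild type replicate 1 in clone 1 and in the mean of the clones, without clone 2 replicate 1 in clone 2, and without clone 2 replicate 2 between the clones. Depth limits SSPN and SGCZ, which had at most 9 paired-end counts each.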

Other observations

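SYNC, which encodes the intermediate filament partner syncoilin, had 1.71 to 2.84 CPM in the 5 paired-end knockout libraries and 1.45 to 3.28 CPM in the 3 paired-end wild type libraries, and 19.9 CPM in the single-end knockout and 20.3 CPM in the single-end wild type library. The paired-end and single-end tables were normalised apart. CAV3 had no count in any paired-end library, and 7 counts in the single-end knockout and 12 in the single-end wild type library. MYH11, a smooth muscle marker, had 1 to 8 counts in each paired-end library, and 292 in the single-end knockout and 216 in the single-end wild type library. DTNB-AS1, whose exons overlap those of DTNB on the opposite strand, averaged 0.0023 CPM in paired-end and 0.598 CPM in single-end libraries. Why the layouts differ was not tested.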
